A study of Bos taurus with 2 samples.

Results

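The genes of major histocompatibility complex (MHC) class II were followed in fetal calf muscle, in 2 pools of RNA from fetuses of low-nutrition (LN) and high-nutrition (HN) dams. The set has 10 members, namely the chains BOLA-DQA5, BOLA-DQB, BOLA-DRA and BOLA-DRB3, the accessory chains BOLA-DMA, BOLA-DMB, BOLA-DOA and BOLA-DOB, the invariant chain CD74 and the transactivator CIITA. A probe belonged to a member when its transcript accession led to the symbol of that member in the RefSeq gene table. In this way 19 probes were found for 7 members, of 26714 genes and unmatched transcripts on the array. BOLA-DRB3, BOLA-DMA and CIITA had no matched probe and are not analysed here.

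To examine maternal undernutrition (MUN), pregnant Japanese Black cows had received feed at 60% (LN) or 120% (HN) of the nutritional requirement, and the longissimus thoracis (LT) muscle of their fetuses was collected at 8.5 months in utero. Total RNA of the 4 fetuses with the highest bodyweight (BW) was pooled for HN, and that of the 4 fetuses with the lowest BW for LN. Each pool was hybridized to 1 one-colour Agilent Bovine (v2) array, a glass slide field of short DNA probes read by the brightness of Cy3-labelled RNA, and both arrays lay on the same slide. All dams were inseminated with male-sorted semen of the same sire, so the fetuses of both pools share a father and differ in their mothers. No group fed the full requirement was on the arrays. Diet, the choice of fetuses by BW and the maternal MHC haplotypes of the fetuses cannot be told apart here. With 1 array per group there is no replicate check, no test and no p-value, and the values compare these pools. The class was chosen by the LN and HN signals of its DQ probes, after these had been seen, so all values of its members are a description.

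Class II molecules are pairs of an alpha and a beta chain on the surface of antigen-presenting cells, mainly macrophages, dendritic cells and B cells, where they show peptides to CD4+ T cells. DR and DQ are the classical pairs. CD74 escorts new pairs to the endosome, DM (BOLA-DMA with BOLA-DMB) exchanges the remaining CD74 fragment for peptide, DO (BOLA-DOA with BOLA-DOB) restrains DM, and CIITA switches on transcription of the whole class. In cattle the DQ genes are highly polymorphic, and the number of DQ genes differs between haplotypes, while BOLA-DRA is nearly invariant. Muscle fibres normally express little class II, so in whole muscle the signal comes largely from cells between the fibres. In such a bulk sample, fewer cells of a type and less RNA per cell cannot be told apart.

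The arrays were similar in quality. Each had 43803 spots that were not controls, with a median processed signal of 49.1 on HN and 48.4 on LN, and no spot was saturated. The scanner software marked 74.5% of these spots as well above background on HN and 70.9% on LN. The 153 negative control spots read 1.04 to 2.17 on HN and 1.32 to 5.78 on LN. The software's error of a signal was 10.04% at the median, and the log2 LN/HN ratio varied with an SD of 0.086 between repeated spots of the same probe (42 probes). Both are technical errors within an array and contain no spread between fetuses.

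Class II probes that were measured in both pools were lower in LN. Of the 19 member probes, 12 were well above background in both pools, 4 were so in HN alone, none in LN alone, and 3 in neither. Across the array, 5.7% of probes well above background in HN were not so in LN. Fewer spots passed in LN (70.9%) than in HN (74.5%), so passing in HN alone was the more common case. The 12 probes measured in both pools all had a lower signal in LN. The 4 that passed in HN alone could only be lower, and they hold the DQ signals by which the class was chosen. Of the 16 probes together, 3 differed by more than 2-fold, a size and direction seen in 0.313% of all probes with a value. At the level of genes, 6 members had a value. The 5 with probes measured in both pools were lower in LN, where 50.7% of all 19554 genes with a value were lower, and BOLA-DQA5 had a value through HN alone. More than 2-fold lower were 2 members (0.286% of all genes), and 4 were past the smaller limit used here, more than 0.32 lower on the log2 scale (9.11% of all genes). No member was higher by either limit, against 0.711% of all genes past 2-fold and 8.85% past 0.32 on the log2 scale. The median log2 LN/HN of the 6 members was -0.54, while that of all genes was -0.0033. Over probes well above background in both pools, the median was -0.20 over 5 members, 0 members were past 2-fold and 2 were past the smaller limit (7.99% of the genes so measured). Of the 5 probes of the DQ members, 4 were no longer well above background in LN and 1 hardly differed. Both probes of BOLA-DQB1, a DQ gene that is not a member, stayed well above background in LN (log2 LN/HN -0.52 and -0.37). The members outside DQ that had a value stayed measurable in both pools and were lower by at most 1.49-fold.

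**Figure D1:**
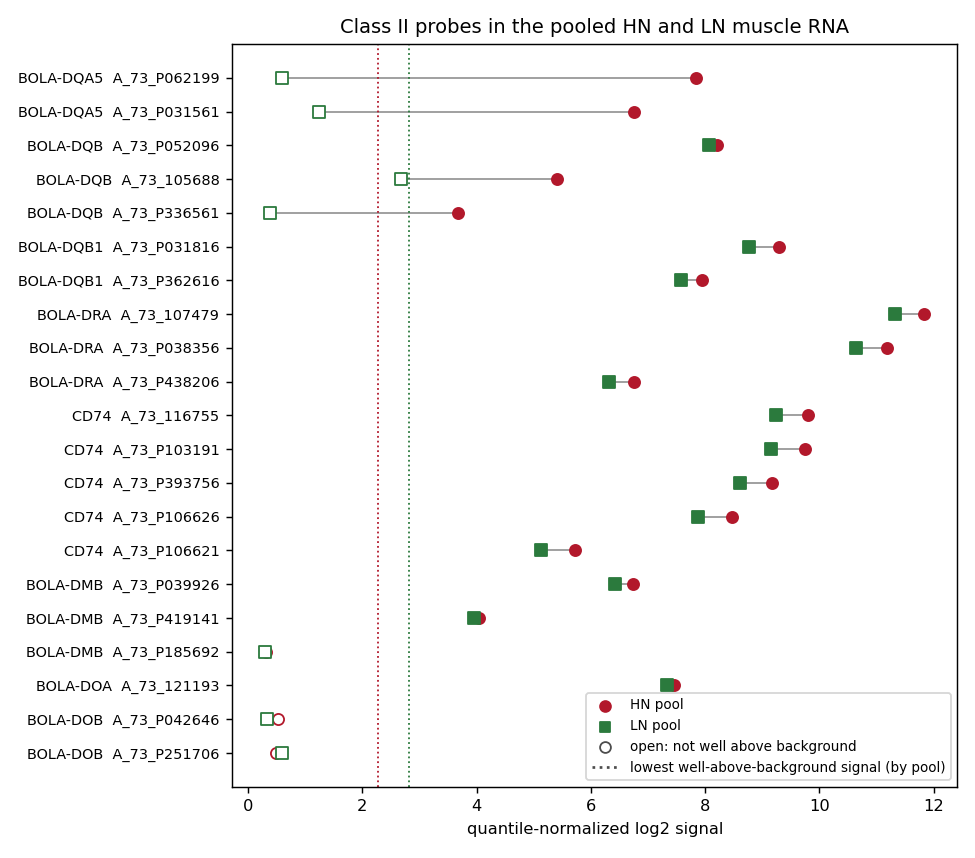
Quantile-normalized log2 signal (horizontal axis) of each class II probe (rows) in the HN pool (red circles) and the LN pool (green squares), 1 array each, with open symbols for signals not well above background and dotted lines at the lowest signal marked well above background on HN (2.27) and LN (2.82). Open LN symbols beside filled HN symbols occur at 4 probes, all of BOLA-DQA5 and BOLA-DQB, whereas the BOLA-DRA and CD74 probes shift by a like amount at every brightness.

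BOLA-DQA5, a DQ alpha chain (NM_001012675), showed the deepest difference. Its probe A_73_P062199 had a processed signal of 227 ± 22.7 (software error) in HN and 1.60 ± 1.59 in LN. The probe A_73_P031561 had 108 ± 10.9 in HN and 2.03 ± 1.59 in LN. Both probes were thus clear in HN and within the range of the 153 negative controls in LN. There 49 of the controls were at least as bright as A_73_P062199, and 1 was at least as bright as A_73_P031561. The unprocessed pixels showed the same contrast. For A_73_P062199 the median pixel of the spot was 241 over a local background of 27.0 in HN, and 27.5 over 26.0 in LN. For A_73_P031561 it was 129 over 24.5 in HN and 30.0 over 23.5 in LN, and the software still marked this LN signal as positive and significant, though not well above background.

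A signal at background sets only a bound. The dim side was therefore placed at the lowest normalized signal still flagged well above background on the same array, or at the probe's own signal where that was higher. On this basis A_73_P062199 was at least 32.5-fold lower in LN (log2 -5.02) and A_73_P031561 at least 15.3-fold lower (log2 -3.94). By these bounds they were the first and second of 31986 probes by size of fall, and BOLA-DQA5 was the first of 19554 genes, at least 22.3-fold lower (log2 -4.48). The next gene had a log2 LN/HN of -2.28. The HN signal of the dimmer of these probes, 108, was then used as a cutoff, so the shares that follow are a description only. Of 17743 probes on the array with an HN signal of 108 or more, only the 2 BOLA-DQA5 probes were not well above background in LN (0.0113%). In the other direction 2 of 17710 probes as bright in LN were not well above background in HN (0.0113%), namely 1 for ASIP, the agouti signalling protein (3.06 in HN and 129 in LN), and 1 for NM_001079577, a transcript without a symbol in the gene table (3.20 and 239).

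BOLA-DQB, a DQ beta chain (NM_001012676), gave probes that disagreed with each other. The probe A_73_P052096 read 293 ± 29.3 in HN and 269 ± 26.9 in LN, a log2 LN/HN of -0.14 ± 0.20, within the software error. The probe A_73_105688 read 43.2 ± 4.48 in HN and 5.94 ± 1.61 in LN, where it was not well above background but above all 153 negative controls, and it was at least 6.04-fold lower in LN. The probe A_73_P336561 read 13.4 ± 1.76 in HN and 1.43 ± 1.43 in LN, with 103 of the 153 negative controls at least as bright, and it was at least 1.81-fold lower. One probe thus read alike in both pools, while the others, below the median signal of the array already in HN, were not well above background in LN. The mean over the 3 probes, at least 2.29-fold lower (log2 -1.20, rank 25 of all genes at this bound), describes none of them. A pattern of 1 probe more than 2-fold lower and another within 0.32 of 0 on the log2 scale was modelled on these BOLA-DQB values. It was present in 24 of 7460 genes with at least 2 probes (0.322%), BOLA-DQB included. Because BOLA-DQB set the pattern, partly through a probe clear in HN alone, this share is a description only.

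The 4 probes that were clear in HN alone were all DQ probes. Among all probes that were well above background in HN, 5.7% were not so in LN, but most of these were dim in HN already. Among probes with an HN signal of 13.4 or more, the share was 0.276% (79 of 28630). That cutoff is the signal of the dimmest of these 4 DQ probes, so this share is a description only. The members outside DQ had 11 probes of that brightness, and all 11 were well above background in LN. Ranked by HN signal, the probes that were clear in HN alone began with 3 DQ probes, followed by probes of UCP3, an uncoupling protein of muscle mitochondria (33.4 in HN and 7.06 in LN), and ALB, serum albumin (21.2 and 6.75).

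BOLA-DQB1, another DQ beta gene, is not a member and was looked at after its values were seen. Its probes read 621 and 246 in HN and 445 and 193 in LN, and both stayed well above background. Its log2 LN/HN of -0.45 (-0.52 and -0.37 by probe) lay with BOLA-DRA rather than with BOLA-DQA5. The DQ genes BOLA-DQA1 and BOLA-DQA2 had no matched probe. Outside the class as defined here, the transcript NM_001013601, which the gene table does not pair with a symbol and which is not known here to be a class II gene, had probes that parted in the opposite direction. Its probe A_73_P036601 was at background in HN (1.65) and clear in LN (82.3), whereas the 3 remaining probes were lower in LN by log2 -0.27 to -0.70.

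**Figure D2:**
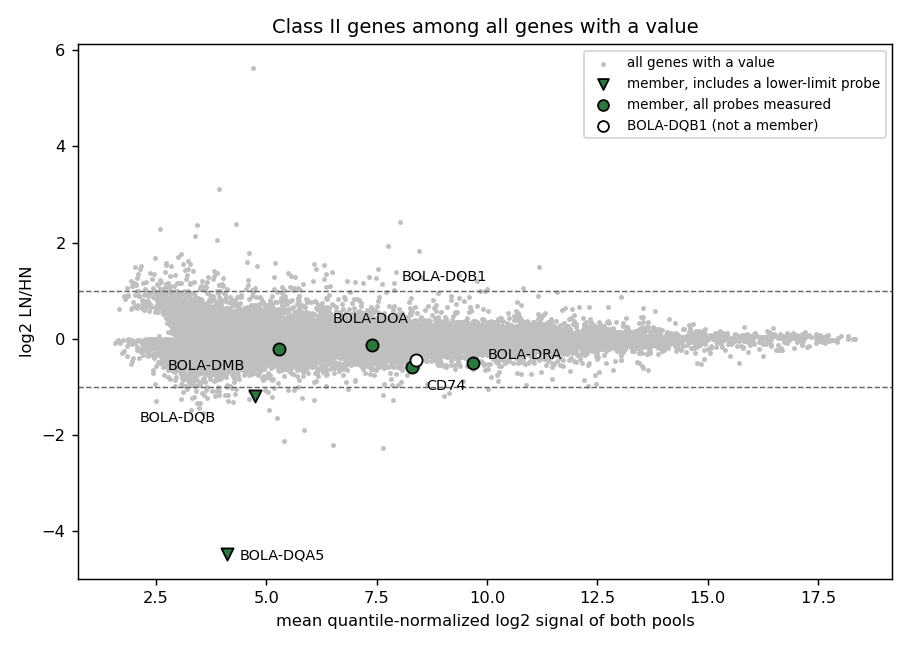
Log2 LN/HN of each gene (vertical axis) against the mean quantile-normalized log2 signal of both pools (horizontal axis) for all 19554 genes with a value (grey points), with the 6 class II members (green) and BOLA-DQB1 (white), and dashed lines at 2-fold. Triangles include probes for which the fall is a lower limit. BOLA-DQA5 at -4.48 stands below all genes, and BOLA-DQB at -1.20 also lies past the 2-fold line.

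BOLA-DRA and the invariant chain were lower in LN by a like amount, while the classical chain BOLA-DRB3 had no matched probe. BOLA-DRA, the DR alpha chain (NM_001012677), read 3599.6, 2296 and 108 in HN and 2599.8, 1619.6 and 80.1 in LN by its 3 probes. The log2 differences were -0.52, -0.55 and -0.42, with a mean of -0.50, or 1.41-fold lower. CD74 (NM_001034735) had 5 probes with HN signals of 879.5, 844, 564, 349.6 and 53.1, and LN signals of 613, 583, 396, 237 and 34.5. Their log2 differences lay between -0.59 and -0.55, with an SD of 0.016 between probes and a mean of -0.58, or 1.49-fold lower.

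The 8 probes of BOLA-DRA and CD74 averaged a log2 LN/HN of -0.55 (1.46-fold lower) with an SD of 0.055 between probes, although their HN signals spanned a 67.8-fold range. Each single ratio exceeded its software error, which was 0.20 to 0.22, and the SD between these probes was no larger than the 0.086 between repeated spots. The size itself was not rare on the array. BOLA-DRA ranked 715 and CD74 438 among 19554 genes by fall, and 9.44% of all probes with a value were more than 0.32 lower in LN on the log2 scale. Whether single fetuses differed by as much is not known from 1 pool each.

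The peptide-loading accessory chains differed less. BOLA-DMB, the beta chain of the peptide exchanger DM (NM_001040481), read 107 and 17.2 in HN and 85.0 and 15.0 in LN, with log2 differences of -0.31 ± 0.21 and -0.09 ± 0.26, and the remaining probe was at background in both pools. BOLA-DOA, the alpha chain of the DM modulator DO (NM_001205920), read 175 ± 17.5 in HN and 163 ± 16.3 in LN, a log2 LN/HN of -0.12 ± 0.20, which was within the software error. BOLA-DOB, its beta partner (NM_001013600), was not well above background in either pool, with signals of 1.35 and 1.30 in HN and 1.40 and 1.60 in LN, so no fold was given. Over the 4 members outside DQ that had a value, the median log2 LN/HN was -0.35 (1.27-fold lower), and their 11 probes lay between -0.59 and -0.09. The mean of BOLA-DQA5 and BOLA-DQB minus this median was -2.49 on the log2 scale. That gap rests on the 4 probes not well above background in LN: over probes well above background in both pools BOLA-DQA5 had no value, and BOLA-DQB alone lay 0.21 above that median.

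The other class II chains were given for comparison. DSB, a gene of the class IIb region, read 338 in HN and 243 in LN (log2 -0.50, 1.42-fold lower). BOLA-DYA and BOLA-DYB, which form a ruminant-specific class II pair, were not well above background in either pool. The list of 7 such chains gave no other value, since BOLA-DRB2 and BOLA-DIB had no matched probe either.

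Class II genes of cattle lie in a pair of clusters, IIa with DR and DQ and IIb with the accessory genes. Gene order was taken from the RefSeq table of ARS-UCD2.0, which is not the build of the array design. BOLA-DQA5 lay between BOLA-DQB and BOLA-DQB1 in that order, so its value of -4.48 stood between -1.20 on one side and -0.45 on the other, with BOLA-DRA (-0.50) at the far end of the cluster. The genes flanking the IIa cluster with a value, FBXO9, GCM1 and ELOVL5, had log2 LN/HN of 0.00019, -0.28 and 0.36. In and beside the IIb cluster, 12 genes that are no class II chain (DSB is given above) had values between -0.57 and 0.39 with a median of -0.068, and 8 of the 12 were lower in LN. The lowest of them were PSMB9 (-0.57) and PSMB8 (-0.42), which encode inducible subunits of the immunoproteasome. The peptide transporter genes TAP1 and TAP2 in the same cluster were at -0.09 and -0.04.

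**Figure D3:**
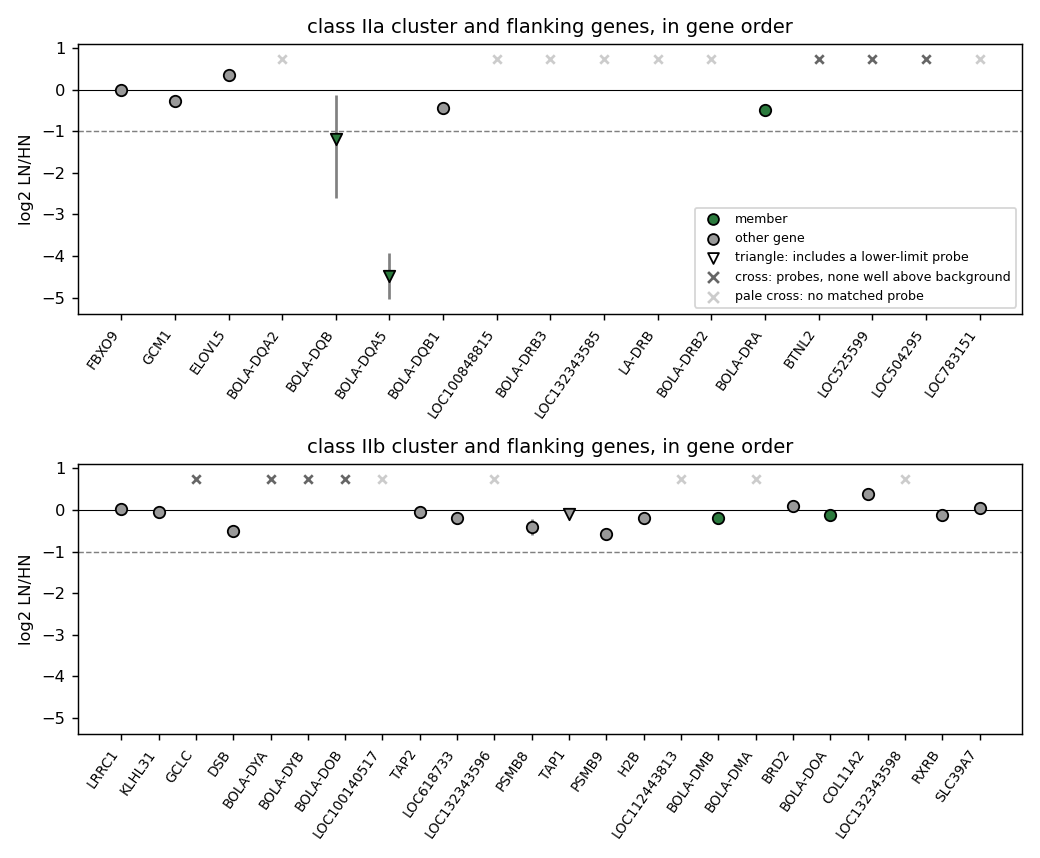
Log2 LN/HN (vertical axis) of the genes of the class IIa (top) and class IIb (bottom) clusters and their flanking genes, placed by gene order and not to distance, with members in green, bars from the lowest to the highest probe, triangles where a probe gives a lower limit, and crosses for genes without a value. BOLA-DQA5 (-4.48) and BOLA-DQB (-1.20) are the only genes below the dashed 2-fold line in either cluster.

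The regulators of class II transcription showed no common direction. Of 17 listed genes, 12 had a value, 5 lower and 7 higher in LN, with a median log2 LN/HN of 0.0062. IRF1, an interferon-induced transcription factor that acts upstream of CIITA, was the sole gene of the list past 0.32 in either direction (-0.42, 1.34-fold lower). IFNG, which encodes interferon gamma, the main inducer of CIITA, was not well above background in either pool. Of 15 genes for endosomal proteases, other loading factors and costimulation, 12 had a value, 6 lower and 6 higher, with a median of -0.047. CD40, a costimulatory receptor of antigen-presenting cells, was the sole one past 0.32 (-0.37, 1.30-fold lower).

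The class I pathway, which presents peptides to CD8+ T cells in nearly all nucleated cells, had 17 of 19 genes with a value. In LN 12 were lower and 5 higher, around a median of -0.093, where 50.7% of all genes were lower. More than 0.32 lower were 5 (9.11% of all genes), with none as far in the other direction (8.85% of all genes). PSMB9 (1.48-fold lower), the class I heavy chain genes BOLA (1.47-fold) and JSP.1 (1.38-fold), and PSMB8 (1.34-fold) were the lowest. Probes of JSP.1, like those of BOLA-DQB, disagreed, from -0.77 to -0.03.

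Markers of the cells that carry class II moved in part with the class, and their part in the result was not tested. Beside the counts of these marker lists, 50.7% of all genes were lower in LN. More than 0.32 lower were 9.11% of all genes, and 8.85% were as far in the other direction. Of 16 macrophage markers, 14 had a value, 10 lower and 4 higher in LN, with a median of -0.10, and their summed normalized signal in LN was 85.5% of that in HN (10390.0 against 12152). The complement genes C1QB (-0.45) and C1QC (-0.40) and the lysosomal protein CD68 (-0.35) were more than 0.32 lower, and C1QA (-0.29) and AIF1 (-0.24) slightly less so. The receptors CSF1R (-0.06), CD14 (-0.05) and CD163 (0.02) were close to 0, and LYVE1, of resident macrophages and lymphatic vessels, was higher (0.36). The summed signal of the 11 measured class II probes outside DQ in LN was 69.4% of that in HN (6335 against 9130.1), a sum made up mostly of the brighter BOLA-DRA probes.

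Of 6 general leukocyte markers, 5 were lower in LN (median -0.22, summed signal 87.2% of HN), with CORO1A at -0.45, CD53 at -0.44 and PTPRC, the common leukocyte antigen CD45, at -0.22. Of 10 dendritic cell markers, 5 had a value (median -0.012, 90.0%), with CD1E at -0.62, CCR7 at -0.58 as a limit and FCER1A at 0.40, and the defining FLT3 and ITGAX had no matched probe. Of 10 B cell markers, 3 had a value (median 0.0098, 98.9%), CD79A was at 0.01, and MS4A1 was not well above background. Of 10 T cell markers, 8 had a value and 7 were lower (median -0.20, 90.9%), with LCK at -0.50, CD2 at -0.44, CD8A at -0.42 and CD3E at 0.05. The CD3E value is the mean of 2 probes that disagreed, at -0.40 and 0.50.

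Lists of non-immune tissue each had 1 gene more than 0.32 lower, against 9.11% of all genes. All 8 endothelium markers had a value and 7 were lower in LN (median -0.21, 78.4%), with CLDN5 at -0.39, PECAM1 at -0.32 and CDH5 at -0.19. The labelled tissue was borne out by skeletal muscle markers, of which 8 of 10 had a value (median -0.14, 95.4%), with ACTA1, the skeletal muscle actin, at a normalized log2 signal of 17.57 in HN and 17.53 in LN, and with log2 LN/HN of -0.04 for ACTA1, -0.24 for CKM, -0.15 for DES and -0.37 for MB. The parts of the endothelial and muscle values in the class II result were not tested.

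**Figure D4:**
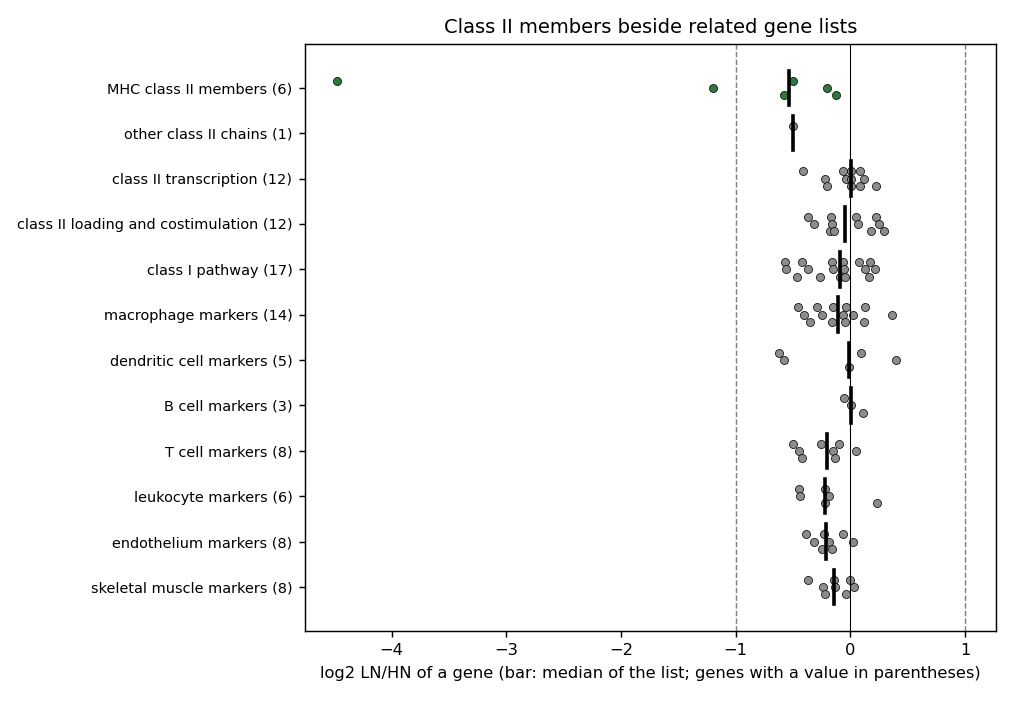
Log2 LN/HN of single genes (points, horizontal axis) by list (rows, with the number of genes with a value in parentheses), with the median of each list as a black bar and dashed lines at 2-fold; limits are drawn at their bound. The 5 class II members (green) with probes measured in both pools lie below 0, BOLA-DQA5 could only lie there, the median of all 6 is -0.54 (-0.20 over probes well above background in both pools), and no gene of the other lists passes 2-fold.

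**Figure D5:**
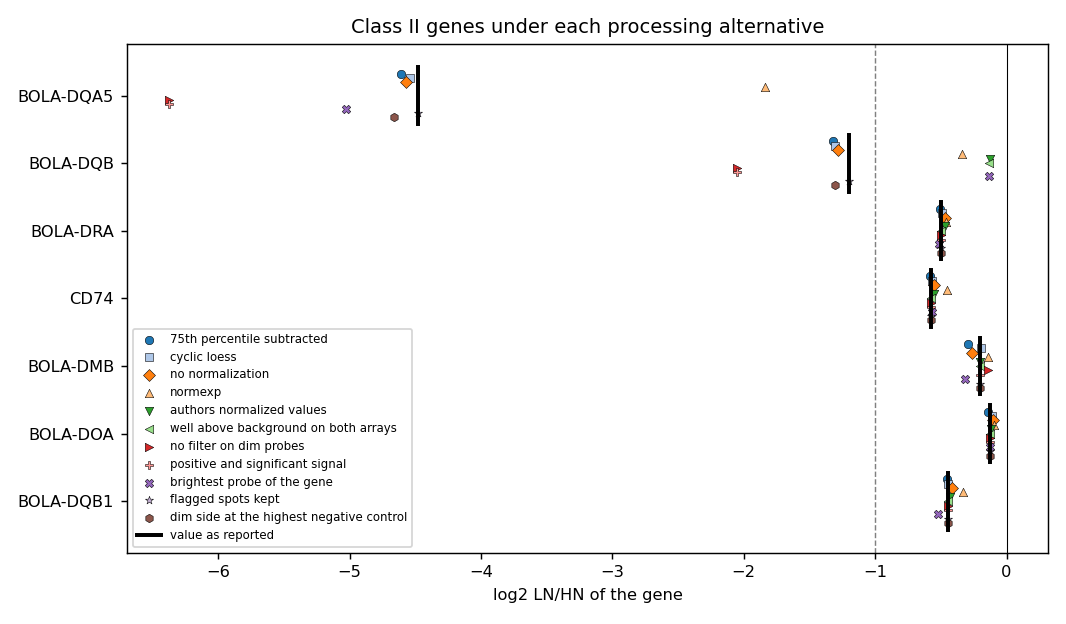
Log2 LN/HN (horizontal axis) of each class II gene with a value, and of BOLA-DQB1 (rows), as reported (black bar) and under each processing alternative (symbols), with a dashed line at 2-fold. BOLA-DRA stays between -0.52 and -0.46 and CD74 between -0.58 and -0.45, while BOLA-DQA5 ranges from -6.38 to -1.84 and BOLA-DQB from -2.06 to -0.13.

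BOLA-DQB, BOLA-DRA, CD74, BOLA-DMB, BOLA-DOA and BOLA-DQB1 were lower in LN under all 11 alternatives run for each. However, the BOLA-DOA probe, 1 BOLA-DMB probe and the 1 BOLA-DQB probe measured in both pools were within their software errors. BOLA-DQA5 had a value under 9 alternatives. Its direction there is no check, because its probes were clear in HN alone and the class was chosen by them. The size at BOLA-DQA5 and BOLA-DQB depended on how signals near background were treated.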

How the data were processed

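The authors extracted the Cy3 intensity of each spot with Agilent Feature Extraction 11.0.1.1 and deposited it as a background-corrected processed signal with an error and detection flags, without normalization between arrays. They also deposited quantile-normalized values from GeneSpring GX, of unstated scale and judged from the values to be log2, for 30027 probes. The members and gene lists were chosen with earlier results of these data known.

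The log2 processed signals were quantile-normalized over non-control spots with limma 3.58.1 in R 4.3.3. After removal of 13 outlier-flagged spots, repeated spots were averaged, which left 43652 probes. Of these, 26742 matched 12603 symbols through RefSeq accessions (ARS-UCD2.0), and the remainder kept their accession. Probes flagged well above background on either array counted as detected. A dim side was set to a limit (log2 2.27 on HN, 2.82 on LN, or its own value if higher), and no fold was given where the bright side did not exceed it. Each gene was given the average log2 LN/HN of its detected probes that had a fold. The number of arrays limits the precision. The steps were tested on simulated data and run in Python 3.11.15 (pandas 2.3.3, numpy 2.4.6, matplotlib 3.10.9).

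All members were named with their probes. From each related list, the genes past 0.32 on the log2 scale were named, at most 4 in each direction by size, with the defining cell type markers whatever their value (1 of them is not reported here) and, in the gene order, neighbours chosen after their values were seen. Alternatives covered the scaling, background correction, dim probes, probes per gene and flagged spots, and the deposited normalized values.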

Additional observations from a re-analysis of the deposited data

How the results depend on the processing

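The 5 members measured in both pools and BOLA-DQB1 kept their direction under every alternative, while that of BOLA-DQA5 was fixed by detection in HN alone. The size at DQ and the counts changed. The median of the members (-0.54) became -0.39 with normexp background correction (on the median spot signal and local background), -0.20 with the authors' values and with probes well above background on both arrays, and -0.42 with the brightest probe. The 2 members past 2-fold became 1 with normexp or the brightest probe, and 0 with the authors' values or with probes well above background on both arrays. The 195 genes past 2-fold became 13 with normexp, 124 with probes above background on both arrays, 1190 without a filter, and 1314 with positive and significant probes. The gap between DQ and the other members (-2.49) was -2.58 with cyclic loess, -0.79 with normexp, -4.07 without a filter, -4.01 with positive and significant probes and -2.16 with the brightest probe. It reversed to 0.21 with the authors' values and to 0.21 with probes above background on both arrays, since both leave out the probes not well above background on LN. BOLA-DQA5 (-4.48) was -4.61 with the 75th percentile, -4.57 without normalization, -1.84 with normexp, -6.38 without a filter and with positive and significant probes, and -5.02 with the brightest probe. BOLA-DQB (-1.20) was -1.32, -1.30, -1.29 and -0.34 with the 75th percentile, loess, no normalization and normexp, -0.13 with the authors' values, -0.14 with probes above background on both arrays and with the brightest probe, and -2.06 without a filter and with positive and significant probes. The median of the other class II chains reversed from -0.50 to 0.021 without a filter, where BOLA-DYA and BOLA-DYB enter at background. With positive and significant probes it was -0.094. BOLA-DMB (-0.20) was -0.31 with the brightest probe and -0.30 with the 75th percentile.

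A pair of alternatives was chosen after seeing the data. With the dim side at the highest negative control, the gap was -2.63, BOLA-DQA5 -4.66 and BOLA-DQB -1.30. With BOLA-DQB1 counted among DQ, the gap was -1.69. Medians near 0 had no fixed sign: transcription ran from -0.05 to 0.0072, loading and costimulation from -0.14 to 0.06, dendritic cells from -0.30 to 0.05 and B cells from -0.05 to 0.02. Leukocytes ran from -0.27 to -0.11, T cells from -0.31 to -0.10, macrophages from -0.16 to -0.06 and muscle from -0.16 to -0.04. The share of higher genes among those past 2-fold, 71.3%, was 46.2% with the 75th percentile, 58.1% with loess, 52.0% without normalization, 52.9% with the authors' values, 595 of 1190 genes without a filter and 50.4% with positive and significant probes.

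No paired analysis was possible because each group has 1 array and the labels give no replicate numbers, and no array could be left out. The alternative on gene names in the scanner files was not run, as the columns used here hold accessions only. Signals near 13 lie close enough to background that a fall there has a small bound.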
